A study of Mus musculus with 28 samples.

Results

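MTA1 regions are the stretches of mouse chromatin in which an MTA1 peak was found in unmodified cells of the line NIH/3T3 Tet-On 3G, mouse embryonic fibroblasts that grow without limit and carry a doxycycline-responsive transactivator. They were chosen as the regions of the deposited table of peaks with an MTA1 peak coverage above 0, and 3017 of 82893 regions met this rule (3.64%). Each region of that table holds a peak of at least 1 of 8 libraries made by chromatin immunoprecipitation with sequencing (ChIP-seq): MTA1, its partner subunits CHD4, HDAC1, HDAC2, MBD2/3 and RBBP4, and 2 replicates of HA-tagged histone H3.3. MTA1, the partners and the histone marks H3K4me3, H3K9ac and H3K27ac were precipitated from wild-type cells with no transduction named, with 1 library each, so that none of these values has a replicate check. Tagged H3.3 came from cells with an HA/FLAG-H3.3 construct that were given aphidicolin, which arrests DNA replication, and doxycycline.

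A further MTA1 library was made from H3.3 knockdown cells (OFP-H3.3A and GFP-H3.3B constructs) and another from control cells (GFP-Luciferase and OFP-Luciferase constructs), and RNA was sequenced from 3 knockdown clones and 2 luciferase clones of these designs. The labels describe the RNA cultures as FLAG/HA-H3.3 fibroblasts under doxycycline, also for the controls. Of the fibroblast markers, 12 of 13 had at least 1 FPKM (fragments scaled to transcript length and library size) in all 5 clones, with sums of 8293 to 9880 FPKM in knockdown clones and 6666 to 7381 FPKM in luciferase clones. The 4 lists of blood, epithelial, endothelial and neural markers summed to at most 19.9 FPKM in any knockdown clone and 16.7 FPKM in any luciferase clone. The knocked-down genes were lower in each knockdown clone: H3f3a had 71.8, 35.6 and 5.05 FPKM in knockdown clones against 128.3 and 143.5 FPKM in luciferase clones, and H3f3b 144.4, 104.3 and 51.7 FPKM in knockdown clones against 249.4 and 237.1 FPKM in luciferase clones. Neither passed the test over all genes (limma adjusted p = 0.516 and 0.469).

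MTA1 is a subunit of the nucleosome remodelling and deacetylase complex (NuRD). In that complex CHD4 is the ATP-dependent remodeller, HDAC1 and HDAC2 remove acetyl groups from histones, the MTA proteins form the scaffold on which the deacetylases and the histone-binding RBBP4 assemble, and MBD2 or MBD3 joins the deacetylase module to the remodeller; MBD2 binds methylated CpG. NuRD was first described as a repressor and is also found at active promoters and enhancers. H3.3 is the H3 variant that is deposited outside of replication, and H3K4me3 and H3K9ac mark active promoters, while H3K27ac marks active promoters and enhancers.

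Promoter sequences are shown for genes linked to MTA1 regions of high level. They are the bases before the gene start, not the MTA1 regions themselves, whose sequence was not read here. For the 4 highest MTA1 levels at an annotated promoter with a partner peak whose gene has an entry under its symbol, the 250 bases before the gene start are printed from RefSeq (GRCm38.p6, 5′ to 3′ on the gene's strand, with positions on that build). Their regions held 10 (Cog2), 10 (Sp1), 19 (Pum2) and 46 (Timm22) MTA1 reads, against a median of 30 per MTA1 region. Jun and Rbbp4 were added after their values were seen, because their regions held more reads, 180 and 65. Capitals mark matches to the motifs named below.
Cog2, chr8:124520517-124520766, plus strand: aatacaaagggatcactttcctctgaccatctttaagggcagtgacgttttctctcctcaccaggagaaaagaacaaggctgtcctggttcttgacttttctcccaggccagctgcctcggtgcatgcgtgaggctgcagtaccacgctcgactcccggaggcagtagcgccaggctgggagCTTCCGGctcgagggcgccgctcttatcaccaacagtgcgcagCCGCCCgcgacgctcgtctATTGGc
Sp1, chr15:102406066-102406315, plus strand: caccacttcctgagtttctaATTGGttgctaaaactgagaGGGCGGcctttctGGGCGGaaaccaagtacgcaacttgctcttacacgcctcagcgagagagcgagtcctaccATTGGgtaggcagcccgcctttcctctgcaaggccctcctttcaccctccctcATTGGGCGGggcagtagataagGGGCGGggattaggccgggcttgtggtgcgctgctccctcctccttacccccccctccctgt
Pum2, chr12:8673884-8674133, plus strand: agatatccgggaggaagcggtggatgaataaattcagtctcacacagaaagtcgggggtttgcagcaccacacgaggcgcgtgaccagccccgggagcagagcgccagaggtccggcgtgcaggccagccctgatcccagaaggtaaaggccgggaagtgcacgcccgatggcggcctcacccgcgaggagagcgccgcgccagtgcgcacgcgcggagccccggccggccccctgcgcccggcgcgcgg
Timm22, chr11:76406675-76406924, plus strand: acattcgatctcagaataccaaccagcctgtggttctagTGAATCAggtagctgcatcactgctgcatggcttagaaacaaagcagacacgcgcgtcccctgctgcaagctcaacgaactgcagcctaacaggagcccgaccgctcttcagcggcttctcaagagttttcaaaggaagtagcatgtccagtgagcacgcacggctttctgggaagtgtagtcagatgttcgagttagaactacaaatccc
Jun, chr4:95052223-95052472, minus strand: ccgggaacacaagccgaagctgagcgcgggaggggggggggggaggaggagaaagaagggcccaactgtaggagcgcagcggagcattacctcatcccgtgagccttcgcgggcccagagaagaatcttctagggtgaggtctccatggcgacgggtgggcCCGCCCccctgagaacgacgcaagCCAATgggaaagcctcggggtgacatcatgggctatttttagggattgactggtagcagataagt
Rbbp4, chr4:129335371-129335620, minus strand: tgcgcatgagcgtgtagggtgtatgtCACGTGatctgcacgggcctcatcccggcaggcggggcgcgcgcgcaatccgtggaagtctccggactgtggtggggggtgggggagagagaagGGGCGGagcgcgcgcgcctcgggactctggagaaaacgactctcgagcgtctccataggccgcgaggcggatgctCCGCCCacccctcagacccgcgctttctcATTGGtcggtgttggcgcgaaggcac

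The motifs searched on both strands were the GC box (GGGCGG), the CCAAT box (CCAAT), an ETS site (CCGGAAG), the AP-1 site (TGANTCA), the cAMP response element (TGACGTCA), an E2F site (TTTNGCGC), a YY1 site (AAGATGGC), the E-box (CACGTG) and the TATA box (TATAAA). The Sp1 promoter held 4 GC boxes and 3 CCAAT boxes, of which a GC box and a CCAAT box overlapped. Cog2, Jun and Rbbp4 each held at least 1 GC box and 1 CCAAT box, Cog2 also an ETS site and Rbbp4 also an E-box. Timm22 held only an AP-1 site, and Pum2, 70.0% G and C with 30 CpG, held none of the 9 motifs in this window. Over the 300 bases around the start (250 before and 50 after), 65.4% of 874 genes with an MTA1 region at their promoter had a GC box, against 65.2% of 6855 genes with another promoter region and 47.2% of all 16743 genes with an entry. The ETS site was found in 22.0% of the genes with an MTA1 region, 18.2% of those with another promoter region and 11.8% of all. For the CCAAT box the shares were 42.3% with an MTA1 region, 38.6% with another promoter region and 39.0% of all, and for the TATA box 6.52%, 6.46% and 12.8%. The cAMP response element stood in 2.52% of the genes with an MTA1 region, against 3.59% of those with another promoter region. In the same order the shares were 2.97% and 2.49% for E2F, 4.81% and 4.77% for AP-1, 4.92% and 4.74% for YY1, and 10.9% and 10.1% for the E-box. Median G and C content was 61.3% for the genes with an MTA1 region and 61.3% for those with another promoter region, against 56.7% for all. On these letters, promoters with MTA1 lay close to promoters that held another library's peak.

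MTA1 regions came in unlike kinds. Of the 3017, 2269 (75.2%) also held a peak of at least 1 partner subunit, 179 (5.93%) held an H3.3 peak but no partner, and 569 (18.9%) held the MTA1 peak alone. Of the other regions, 34.1% held a partner peak. The share of MTA1 regions with a partner was 44.4% where a partner had to cover at least 0.5 of the region. It was 11.5%, below that of the other regions, where the MTA1 peak had to do so. That setting favours regions that hold little but the MTA1 peak. Median MTA1 coverage was 100% with MTA1 alone and 10.7% with a partner, so the 11.5% is fixed in part by how regions were made. Regions with a partner were long, with a median of 1837 bp and 38 MTA1 reads, and the MTA1 peak inside them had a median width of 174 bp. Regions with MTA1 alone had a median of 148 bp and 8 MTA1 reads, and none held more than 17 reads. The plot of MTA1 reads against length shows the last kind as a separate group at the lower left.

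**Figure D1:**
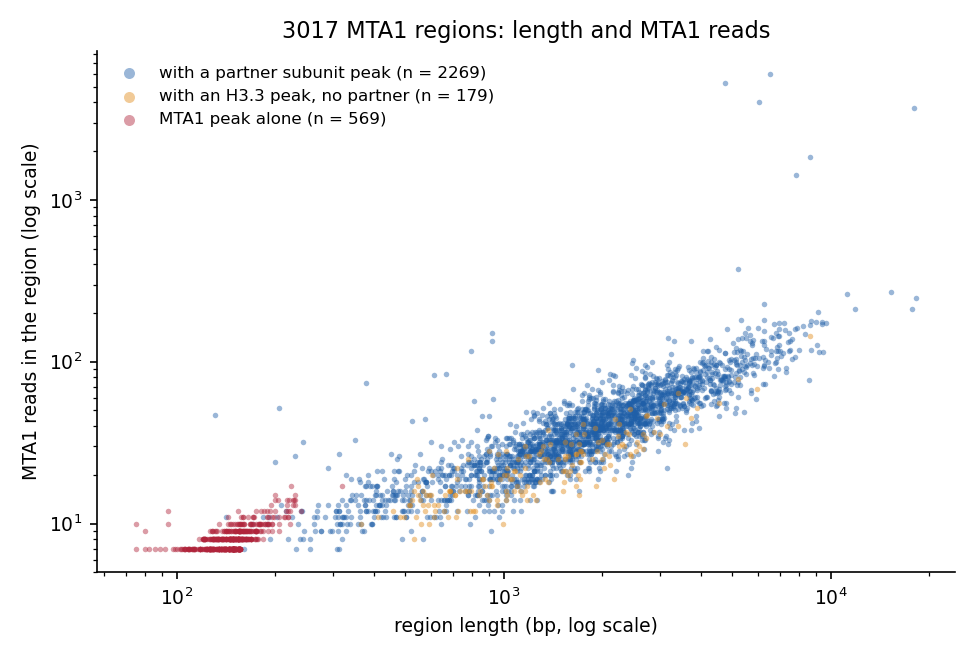
Each point is 1 of the 3017 MTA1 regions, with its length in bp on the x axis and its MTA1 reads on the y axis (both log scales); colours separate 2269 regions with a partner subunit peak, 179 with H3.3 and no partner, and 569 with the MTA1 peak alone. The regions with MTA1 alone lie at 7 to 17 reads and 75 to 321 bp, and the highest region holds 5950 reads.

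Levels in the deposited table are log2(RPKM + 1), where RPKM is reads scaled to region length and library size. The median MTA1 level was 1.61 in MTA1 regions and 0.98 in the other 79876 regions, and 4.28% of the other regions lay above that median of 1.61. Among MTA1 regions the level was 2.56 where MTA1 was alone and 1.54 where a partner was present, the reverse of the order of reads, since the level divides by the whole length of a region. Reads recovered from the levels gave 11.0 M for the MTA1 library and a median of 30 per MTA1 region, a counting error of 18.3%. The lowest MTA1 peak coverages that met the rule were 0.869%, 1.18% and 1.61% of the region, and the highest MTA1 level outside it was 6.85, with 1529 reads, in a region on chromosome 2.

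RBBP4 was the most frequent partner. It had a peak in 2183 MTA1 regions (72.4%), against 29.5% of the other regions. HDAC2 had a peak in 1544 (51.2%), against 12.0%, and HDAC1 in 955 (31.7%), against 5.36%. MBD2/3 was present in 429 (14.2%), against 2.75%, and the remodeller CHD4 in 409 (13.6%), against 2.01%. The lists differ in size: RBBP4 had peaks in 25717 regions and CHD4 in 2017. Counted the other way, the share of a partner's regions that held MTA1 was 20.3% for CHD4, 18.2% for HDAC1, 16.3% for MBD2/3, 13.9% for HDAC2 and 8.49% for RBBP4. CHD4 thus overlapped MTA1 in the smallest share of MTA1 regions but in the largest share of its own.

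Length also bears on overlap, since MTA1 regions had a median of 1473 bp against 831 bp. Among regions of 500 to 1500 bp, 791 of MTA1 and 47990 others, the partner shares were 83.7% against 20.8% for RBBP4, 47.8% against 7.38% for HDAC2, 26.9% against 3.26% for HDAC1, 14.8% against 1.48% for MBD2/3 and 12.8% against 1.07% for CHD4. This window leaves out all regions with MTA1 alone, which had at most 321 bp. Its shares for MTA1 regions are therefore fixed in part by how regions were made. The plot of partner shares shows each partner above its share in the other regions in both panels. Where a partner had to cover at least 0.5 of the region, its share was 42.8% for RBBP4, 6.23% for HDAC2, 1.23% for HDAC1, 1.19% for MBD2/3 and 0.398% for CHD4.

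**Figure D2:**
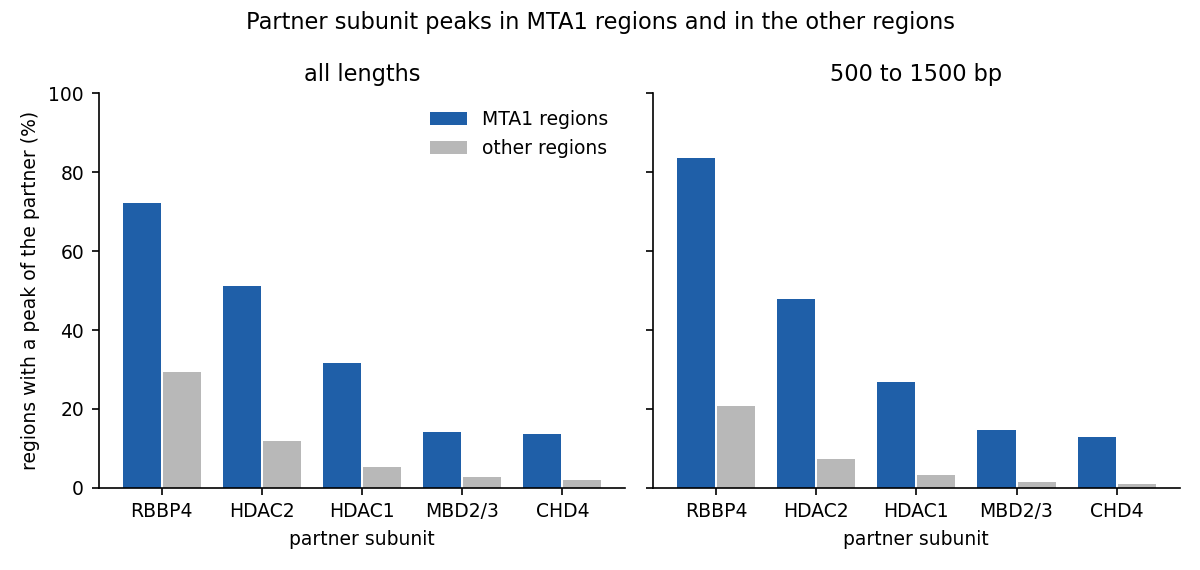
Bars give the share (%) of regions with a peak of each partner subunit, in MTA1 regions (left bar of each pair) and in the other regions (right bar), for regions of all lengths (left panel) and of 500 to 1500 bp (right panel). RBBP4 reaches 72.4% and CHD4 13.6% of MTA1 regions of all lengths, against 29.5% and 2.01% of the other regions. The right panel holds no region with MTA1 alone.

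RBBP4 was present in 2183 of the 2269 regions with a partner. HDAC2 with RBBP4 was the most frequent combination (522 regions), followed by RBBP4 alone (479), then HDAC1 with HDAC2 and RBBP4 (435). Partners without RBBP4 were rare: HDAC2 was the only partner in 37 regions, HDAC1 in 15, MBD2/3 in 7 and CHD4 in 4. RBBP4 together with a deacetylase was found in 1631 MTA1 regions (54.1%) and in 11.2% of the other regions. CHD4 with MBD2/3 was found in 160 (5.30%), against 0.333%, and all 5 partners in 108 (3.58%), against 0.145%. Within the 2269 regions with a partner, the level of MTA1 correlated with that of each partner at a Spearman rho of 0.55 to 0.60. Over all 3017 MTA1 regions rho was lower, at 0.28 for CHD4, 0.26 for MBD2/3, 0.19 for HDAC1, 0.12 for HDAC2 and 0.035 for RBBP4. Both are descriptions across regions that share their length, base composition and copy number. HDAC1 had 26 and HDAC2 26 median reads per MTA1 region, MBD2/3 18 and CHD4 21, and the part of depth in the absence of a peak was not tested.

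Annotation placed 919 MTA1 regions (30.5%) at an annotated promoter, defined as a feature within 3 kb upstream of a gene or in a 5′ UTR, against 13.7% of the other regions. Where the MTA1 peak had to cover at least 0.5 of the region, which left 643 regions, the share was 10.9%, below that of the other regions. Only 11.5% of these 643 held a partner, so the 10.9% is mostly the share of regions without one. Introns held 942 (31.2%), against 45.0%, and 907 (30.1%) had no gene feature, against 30.3%. At 500 to 1500 bp, where no region with MTA1 alone is left, the promoter share was 40.8%, against 12.1%. The share differed by kind: 37.2% with a partner, 16.2% with H3.3 only and 8.08% with MTA1 alone. Partner libraries as a whole had 42.8% (HDAC1), 40.4% (CHD4), 36.9% (MBD2/3), 36.5% (HDAC2) and 28.2% (RBBP4) of their regions at promoters, so that MTA1 lay between RBBP4 and HDAC2. The 5′ UTR class alone held 7.33% of MTA1 regions. A gene start or locus end lay inside 33.4% of MTA1 regions and 9.96% of the others, and the median distance to the nearest one was 6118 bp against 16532 bp.

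H3.3 peaks were present in 71.9% of MTA1 regions: 68.4% in replicate 1 and 70.2% in replicate 2. In the other regions the shares were 56.2% and 83.1%, but an other region without any subunit peak must hold an H3.3 peak, so these shares are fixed in part by how the table was made. A peak in both replicates was found in 66.7% of MTA1 regions and 49.5% of the others. Of regions with a partner, 87.7% had an H3.3 peak, against 70.1% of the other regions that held a subunit peak. At 500 to 1500 bp these shares, for a peak in either replicate, were 83.8% and 86.4%, so their order turned. It also turned in replicate 2 (78.9% and 80.8%). The order was kept in replicate 1 (74.9% and 72.7%) and for a peak in both replicates (69.9% and 67.0%). The median H3.3 level was 2.32 in MTA1 regions and 1.81 in the others in replicate 1, and 2.28 and 2.01 in replicate 2. These differences, 0.51 and 0.27, shrank to 0.33 and 0.07 among regions of 500 to 1500 bp. At that length the MTA1 regions with a partner lay close to the other regions with a subunit peak. Their median levels were 2.12 and 2.03 in replicate 1, and 2.07 and 2.04 in replicate 2.

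Active marks were frequent. H3K4me3 peaks overlapped 1973 MTA1 regions (65.4%), against 28.2% of the other regions, H3K9ac peaks 1569 (52.0%), against 17.9%, and H3K27ac peaks 1387 (46.0%), against 15.0%. The median H3K4me3 level was 2.03 in MTA1 regions and 0.58 in the others. At promoters, 94.6% of MTA1 regions had an H3K4me3 peak, against 76.3% of other promoter regions, and 68.8% had H3K27ac, against 37.8%. Away from promoters H3K4me3 was found in 52.6% and H3K27ac in 36.0%, against 20.6% and 11.3%. The contrast at promoters was smaller between MTA1 regions with a partner and other regions with a subunit peak. There H3K4me3 was found in 97.3% against 93.1%, and H3K27ac in 73.9% against 52.9%. Away from promoters the same sets had 70.1% against 47.1% for H3K4me3 and 50.9% against 26.7% for H3K27ac. Set against other regions with a subunit peak of 500 to 1500 bp, the MTA1 regions with a partner had H3K4me3 in 79.6% against 62.3%, H3K9ac in 65.5% against 45.6% and H3K27ac in 48.8% against 33.6%. These 2 sets also differed in their share at promoters, 43.9% against 29.8%. With at least 50% of the region covered by mark peaks, H3K4me3 was found in 57.1% of MTA1 regions and H3K27ac in 7.86%. Mark peaks were less frequent where MTA1 was alone, with H3K4me3 in 16.0%, H3K9ac in 7.56% and H3K27ac in 2.81%. These regions had a median of 148 bp, against 831 bp for the other regions, and the part of length was not tested. Their median levels were not lower: 0.62 for H3K4me3, 0.91 for H3K9ac and 1.05 for H3K27ac, against 0.58, 0.84 and 1.03 in the other regions.

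Marks were more frequent in MTA1 regions with more partners, up to 4. With 0, 1, 2, 3, 4 and 5 partners, H3K4me3 peaks were found in 20.5%, 60.3%, 79.1%, 90.4%, 94.8% and 89.8% of regions. H3K27ac peaks were found in 5.08%, 33.2%, 53.6%, 74.7%, 82.6% and 79.6%. Region length moved in the same direction, with medians of 154, 1186, 1747, 2164, 2246 and 2486 bp, and its part in the pattern was not tested.

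**Figure D3:**
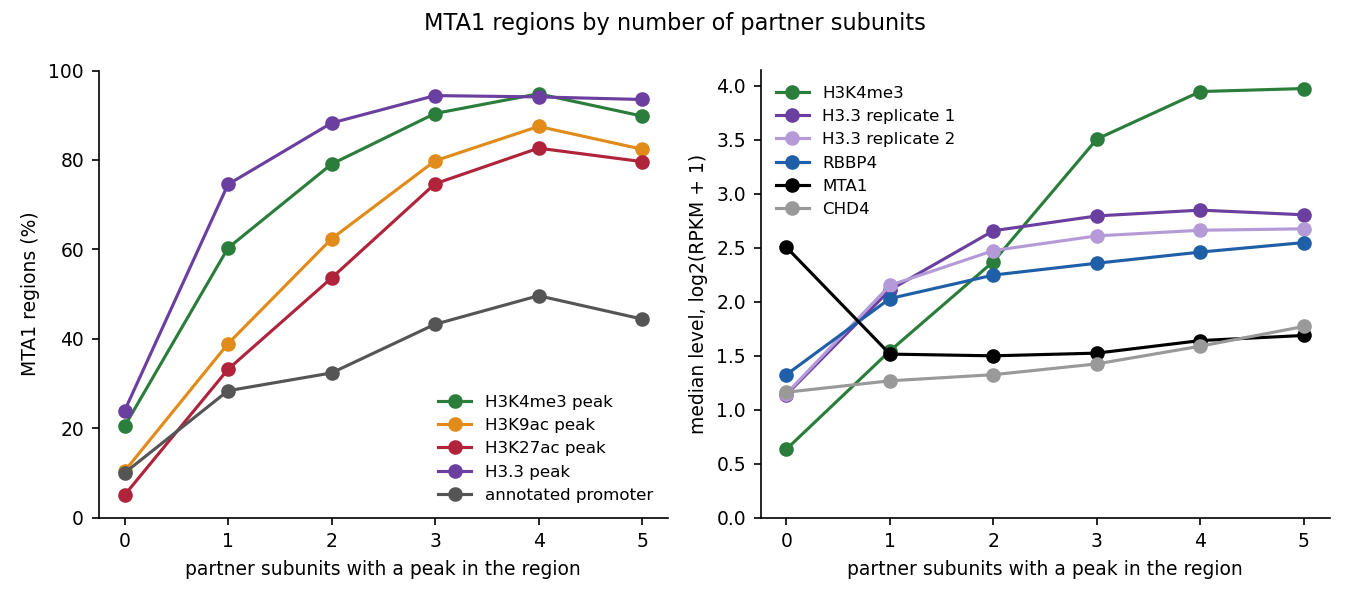
The 3017 MTA1 regions are grouped on the x axis by the number of partner subunits with a peak in the region (0 to 5). The left panel gives the share of regions (%) with a peak of each mark or of H3.3, or at an annotated promoter; the right panel gives median levels as log2(RPKM + 1). H3K4me3 peaks reach 94.8% of regions with 4 partners, and the MTA1 level is highest, 2.50, with no partner.

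Among MTA1 regions, the highest MTA1 levels lay on the mitochondrial genome, over ribosomal RNA and at the Sfi1 locus. The first in rank (mm9 coordinates, as for all regions) were chrM:10976-15726 on the mitochondrial genome (level 6.66, 5259 reads) and chrM:1-6496 (6.39, 5950 reads), where all subunit libraries were nearly as high (5.64 to 6.65) and H3.3 was listed at 0 in both replicates. Next was chr17:39979842-39985867 over Rn45s, the 45S precursor of ribosomal RNA, with 4011 reads and a level of 5.94. There HDAC2 had 7.17, RBBP4 6.42, H3.3 6.07 and 5.93, and H3K4me3 5.53. Short regions at chr1:24619527-24619657 and chr1:24619855-24620059, 25251 bp and 25579 bp from the start of Col19a1, had 5.07 and 4.58. The Sfi1 locus, a gene for a centrosomal protein, held 3 regions of the highest 10, at chr11:3040333-3048982, chr11:3052004-3069994 and chr11:3090811-3098657, with MTA1 levels of 4.13 to 4.34. All partner levels there lay between 4.24 and 4.65, with RBBP4 (4.56 to 4.65) and HDAC2 (4.43 to 4.54) above MTA1, and both H3.3 replicates at 3.93 to 4.59. The other 2 were chr6:3151298-3151676 (4.22) and chr11:108872729-108873649, 91066 bp from Axin2 (3.99). The input libraries have no column in the table of levels as used here, so copy number at these places was not tested.

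Below this group, the highest promoter regions with a partner held 10 to 46 reads, and 7 of these 8 held fewer than the median of 30. They lay at Mir6236, a microRNA gene (level 3.49, 26 reads), Bsnd, a chloride channel subunit gene (2.68, 11 reads), Cog2, for a Golgi tethering subunit (2.66, 10 reads), Fopnl, a centrosomal protein gene (2.60, 19 reads), Sp1, for the factor that binds GC boxes (2.53, 10 reads), Pum2, an RNA-binding repressor gene (2.53, 19 reads), Timm22, a mitochondrial import subunit gene (2.49, 46 reads), and Phf20, a chromatin reader gene (2.46, 18 reads). Sp1 lay 354 bp from its region, chr15:102236205-102236393, which held an MBD2/3 peak but no other partner. Bsnd was linked to its region by a locus end, at 1458 bp, that need not be the start. Timm22, at chr11:76220107-76221007, held 4 partners and all 3 marks, and an MTA1 peak of the luciferase library but none of the knockdown library. Outside genes, the highest regions after those named were near Pex2 (chr3:5860311-5860922, 3.73), Mir6356 (3.69), Csmd1 (3.58) and Igf2bp3 (3.25), all with the 5 partners; they lay 284063, 47151, 372516 and 21349 bp from those genes.

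MTA1 regions were unevenly spread over chromosomes. They made up 5.68% of the regions of chromosome 11, 5.66% of chromosome 15 and 5.06% of chromosome 4, against 1.42% of chromosome X and 2.01% of chromosome 13. The median MTA1 level in the other regions of the same chromosome moved with this share: it was 1.09 on chromosome 11 and 0.66 on X. Over the 20 nuclear chromosomes the Spearman rho was 0.95 for the MTA1 library, 0.93 for HDAC2, 0.87 for RBBP4, 0.91 for H3.3 replicate 2 and −0.43 for H3.3 replicate 1, as a description of points that share the karyotype of the line. The part of chromosome copy number in the number of MTA1 regions was not tested.

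**Figure D4:**
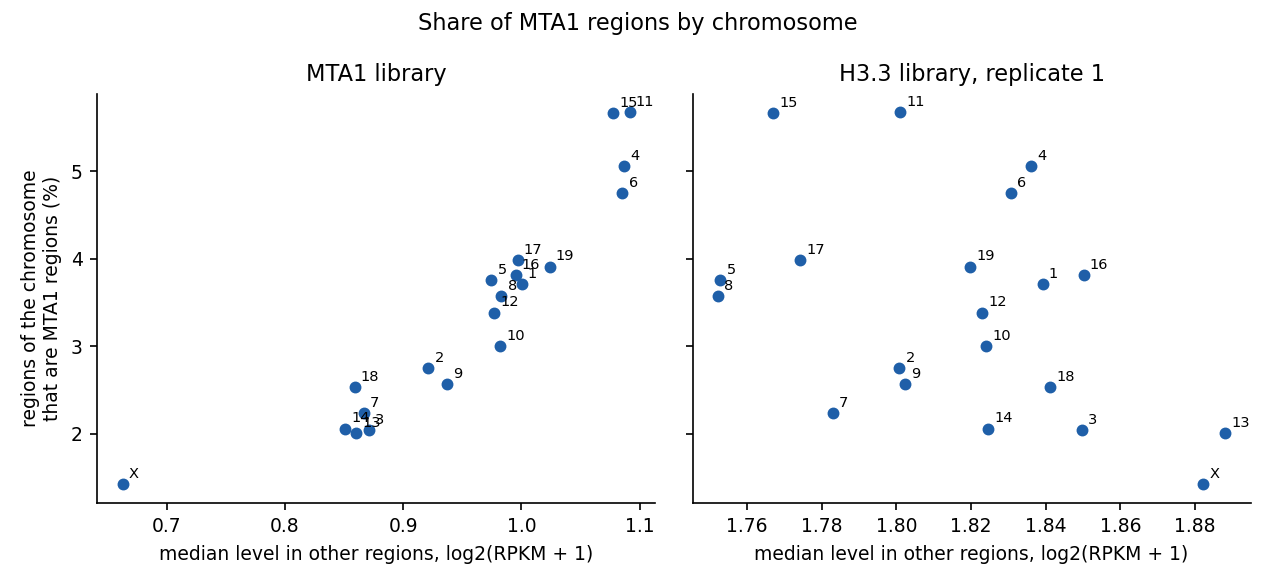
Each point is 1 of 20 chromosomes, labelled with its name. The y axis is the share (%) of its regions that are MTA1 regions, and the x axis the median level, log2(RPKM + 1), of the MTA1 library (left) or of H3.3 replicate 1 (right) in the other regions. Chromosomes 11, 15, 4 and 6 lie at the upper right of the left panel and X at the lower left.

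MTA1 regions recurred in part in other MTA1 libraries. Peaks of the H3.3 knockdown library overlapped 149 of the 3017 regions (4.94%, exact binomial 95% interval 4.19% to 5.77%, counting error only), and peaks of the luciferase library 97 (3.22%, 2.61% to 3.91%). Of the other regions, 0.771% met a knockdown peak and 0.666% a luciferase peak. Among regions that held a partner peak the contrast was smaller: knockdown peaks met 6.35% of MTA1 regions with a partner and 2.08% of other regions with a subunit peak, and luciferase peaks 4.14% and 1.77%. At 500 to 1500 bp, knockdown peaks met 4.34% of MTA1 regions with a partner against 1.81% of other regions with a subunit peak, and luciferase peaks 2.89% against 1.63%. By partner number the knockdown library overlapped 0.668% of regions with none and 24.1% of those with all 5, and the luciferase library 0.401% and 17.6%. Median region length was 154 bp with none and 2486 bp with all 5, and its part in this was not tested. The regions with all 5 also included places of very high level, such as that over Rn45s, which met both lists. Of regions with MTA1 alone, 5 of 569 met a knockdown peak and 2 a luciferase peak. In the knockdown list 152 of 904 peaks (16.8%) lay in MTA1 regions, and in the luciferase list 120 of 1703 (7.05%); median peak width was 861.5 bp in the knockdown list and 150 bp in the luciferase list, their depth is unknown, and there is 1 library each, so no change of binding was tested. With scores of at least 100, luciferase peaks met 0.862% of MTA1 regions. In all, 201 regions (6.66%) were met by at least 1 of these lists, 45 by both, and 194 of the 201 held a partner. RBBP4 peaks overlapped 253 MTA1 regions (8.39%) in knockdown cells and 250 (8.29%) in luciferase cells, against 2.20% and 2.28% of the other regions. For regions of 500 to 1500 bp with a subunit peak, these shares were 8.82% of MTA1 regions with a partner against 6.71% of other regions in knockdown cells, and 7.23% against 6.43% in luciferase cells. In the sequential ChIP, which took FLAG-tagged H3.3 first and RBBP4 second, 3 of the 6 peaks of the list lay in MTA1 regions, at chr11:68859169-68859389, chr11:71855503-71855735 and chr4:116854887-116855221.

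Of the 919 MTA1 promoter regions, 890 had a gene start within 3 kb or, for a gene of unknown strand, an end of its locus. To them 1064 genes were linked, 10.6% of the 9991 genes with any promoter region and 4.44% of all 23949 genes. A known start linked 920 of the 1064. Myc (1600 bp), Rpl3 (1073 bp) and Hoxb6 (2198 bp), named below, were linked by a locus end that need not be the start. The same holds for Bsnd (1458 bp). It also holds for Hdac1, Id1, Bambi, Gins4, Rn45s, Sfi1 and Mir6236, where a locus end lay inside the region. The linked genes had higher median levels than others. Their median was 14.0, 15.5 and 14.9 FPKM in the knockdown clones and 15.9 and 16.3 FPKM in the luciferase clones, against 8.79, 9.25 and 9.20 FPKM in the knockdown clones and 9.87 and 9.92 FPKM in the luciferase clones for genes with another promoter region. Away from promoters, the gene nearest to an MTA1 region had a median of 7.36 and 7.73 FPKM in luciferase clones, against 4.31 and 4.76 FPKM for the other regions; for MTA1 alone it was 3.13 and 3.47 FPKM.

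NuRD's own genes were partly among them. Of 15 NuRD genes, 12 had a promoter region and 3 an MTA1 peak in it. Rbbp4 (chr4:129011701-129013852) held 65 MTA1 reads, 4 partners and MTA1 peaks of both the knockdown and the luciferase library. The promoter region of Hdac1, at chr4:129218992-129220812, held 59 reads and 3 partners, and that of Mta2 at chr19:9015042-9017378 held 48 reads and 3 partners. The Mta1 gene itself had no MTA1 peak in its promoter region, chr12:114335884-114336434, which held 6 MTA1 reads beside HDAC2 and RBBP4 peaks. Mta3 likewise had none (23 reads, HDAC2 and RBBP4 peaks). Chd4, Hdac2, Mbd3 and Gatad2a, with 31 to 49 MTA1 reads in their regions, also had no MTA1 peak of unmodified cells, while the Hdac2 region held one of the knockdown library. Mta2, with 48 reads, lay within their range.

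Genes of rapid signal response stood among the linked genes. Of 10 AP-1 genes, whose dimers drive early growth responses, 4 had an MTA1 promoter region: Jun, Fos, Fosb and Fosl2. Jun (chr4:94716455-94721757) held 180 reads, 4 partners and an MTA1 level of 2.03, with 3.19 for RBBP4, 3.10 and 3.14 for H3.3 and 4.77 for H3K4me3. Fos (chr12:86812526-86815551) held 65 reads, Fosl2 39 and Fosb 28. Of 16 other serum-response genes 3 were linked, Maff, a small Maf factor (54 reads), Ier3, a stress-response gene (24), and Myc, the growth regulator (22, at 1600 bp from a locus end). Of 13 genes of MAPK feedback, 2 were linked, the ERK phosphatase genes Dusp7 (99 reads) and Dusp6 (89).

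H3 chaperone genes and BMP targets followed. Of 13 H3.3 and H3 chaperone genes 3 were linked: Hira (72 reads), whose product deposits H3.3, Nasp (54), a histone H3 carrier, and Asf1b (24), which hands H3 to other chaperones. Of 14 Wnt and BMP targets 4 were linked: Id2 (135 reads), Id1 (51) and Bambi (16), and Smad6 (57), an inhibitor of the BMP pathway. Id2 also met MTA1 peaks of both the knockdown and the luciferase library. Of 20 collagen and matrix genes 4 were linked, Col1a2 (40 reads), Sparc (40), and Col4a1 and Col4a2, which share a start region with 1 MTA1 peak of 7 reads and no partner.

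Cytosolic ribosomal protein genes had 6 of 32 linked, Rpl13 (53 reads), Rps18 (31), Rpl11 (28), Rplp2 (19), Rpl3 (9) and Rps23 (7), and the regions of Rpl3 and Rps23 held no partner. Reads of ribosomal protein and histone genes may be shared with near-identical copies. Among 19 stress genes, 3 endoplasmic reticulum genes were linked, Dnajb9 (44 reads), Sdf2l1 (40) and Hsp90b1 (39). Single members were linked among 22 Polycomb genes (Pcgf2, 137 reads), 14 fibroblast genes (Pdgfra, 69), 14 p53 targets (Sesn1, 41), 28 Hox genes (Hoxb6, 12) and 18 contractile genes (Flna, 11), and 2 of 19 measured histone genes (Hist1h4h, 31, and Hist1h3c, 12). The regions of both histone genes held no partner. No gene was linked among 27 of replication and division, of which 20 had a promoter region, 18 of sterol synthesis (14), 15 interferon-stimulated genes (8), 28 developmental factors of other lineages (2) and 21 markers of other cell types (7). Against the 10.6% of all genes with a promoter region, the shares were 66.7% of 6 AP-1 genes, 50.0% of 8 Wnt and BMP targets, 30.0% of 10 chaperone genes, 25.0% of 12 NuRD genes, of 8 MAPK feedback genes and of 12 stress genes, 22.2% of 18 collagen and matrix genes, 20.7% of 29 ribosomal genes and 20.0% of 15 serum-response genes. Other lists lay near or below it, with 14.3% of 14 histone genes, 12.5% of 8 p53 targets, 11.1% of 9 fibroblast genes, 7.69% of 13 contractile genes, 7.69% of 13 Hox genes and 5.88% of 17 Polycomb genes, and the 5 lists without a linked gene at 0%. These lists are small, and no test was made over them.

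RNA of the linked genes did not pass the test in knockdown clones. Over 11726 genes with a mean of at least 1 FPKM, limma called 4 genes at an adjusted p under 0.05 (0.0341% of those tested), and none of the 962 tested genes with an MTA1 promoter region (smallest adjusted p = 0.219). Without knockdown clone 1 or 2 it called 9 or 13 genes, and without luciferase clone 1 or 2 it called 36 or 28, none of them with an MTA1 promoter region. At an unadjusted p under 0.05, 40 of the 962 (4.16%) were higher in knockdown clones and 41 (4.26%) lower, against 3.5% higher and 6.31% lower among all genes tested. Their median log2 difference was −0.07, against −0.10 for all genes tested and −0.10 for genes with another promoter region. After quantile normalization it was 0.017, against −0.01 for all genes tested.

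The linked genes with the smallest p-values had clones that did not overlap. Choice by p-value favours this, and the share of all tested genes without overlap was not counted. Cd164, a sialomucin gene, had 104.7, 92.3 and 71.5 FPKM in knockdown clones against 20.9 and 23.0 FPKM in luciferase clones (log2 difference 1.96, SE 0.23, limma adjusted p = 0.219). Mpc2, a subunit of the mitochondrial pyruvate carrier, had 36.5, 33.6 and 25.4 FPKM in knockdown clones against 13.3 and 13.2 FPKM in luciferase clones (limma, 1.19, SE 0.22, adjusted p = 0.401). Its MTA1 region held 61 reads and all 5 partners. Anapc13, for a subunit of the anaphase-promoting complex, had a log2 difference of 1.44, the kinase gene Yes1 1.05 and Sparc, a matrix protein gene, 0.97 (limma adjusted p 0.401 to 0.428). Lower in knockdown clones was Tle1, a corepressor gene, with 14.4, 18.1 and 18.5 FPKM against 33.3 and 32.5 FPKM in luciferase clones (limma, −0.92, SE 0.19, adjusted p = 0.416), whose region held 138 reads. The differences were −0.97 for Rgmb, a BMP co-receptor gene, −0.81 for the lipid kinase gene Agk, −0.74 for Gins4, of the replicative helicase, and −1.08 for 1700037H04Rik. None of these 10 passed the test over all genes, and each was picked for its p-value.

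**Figure D5:**
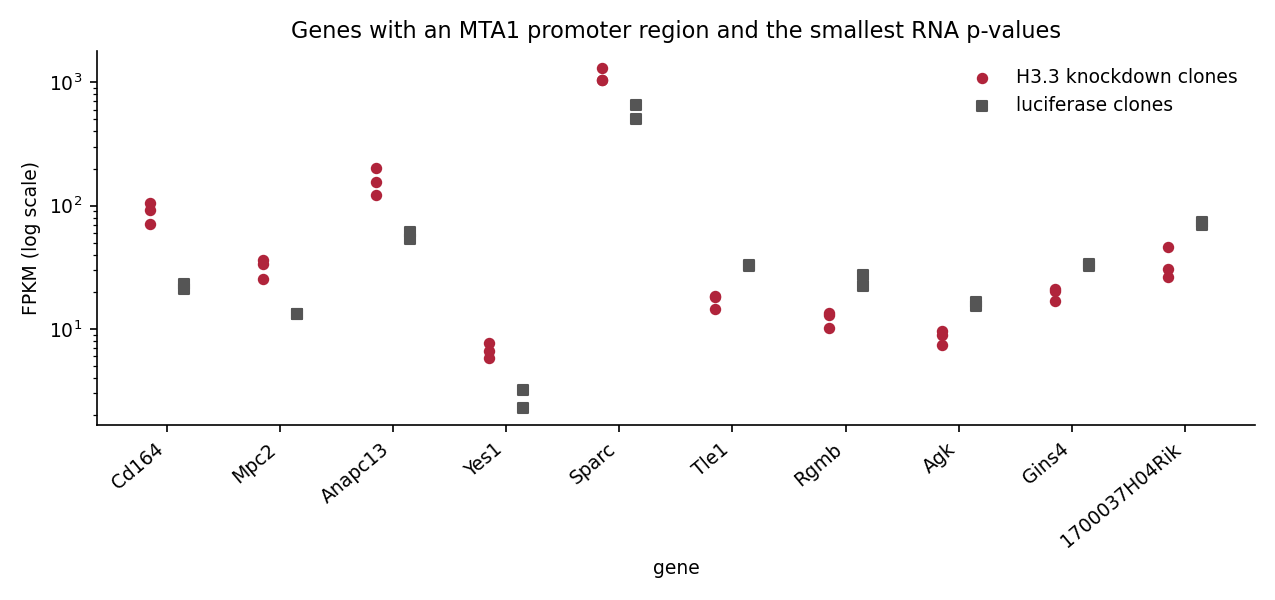
FPKM (log scale) in each clone for the 10 genes with an MTA1 promoter region and the smallest RNA p-values, 5 higher and 5 lower in knockdown. Red points (left of each pair) are the 3 H3.3 knockdown clones and grey squares (right) the 2 luciferase clones. The clones of the groups do not overlap for any of the 10. The genes were chosen for their p-values, which favours this, and the share over all tested genes was not counted.

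Jun had 40.3, 41.6 and 52.8 FPKM in knockdown clones and 56.3 and 41.9 FPKM in luciferase clones, and these groups overlap (log2 difference −0.12, SE 0.23, limma adjusted p = 0.847). Among NuRD genes, Rbbp4 differed by −0.26, Mta2 by −0.12, Hdac1 by 0.10 and Mta1 by −0.51 on the log2 scale, and none passed the test (limma adjusted p 0.561 to 0.861). Hira differed by −0.43 (adjusted p = 0.576). Id2 had 19.4, 31.5 and 83.9 FPKM in knockdown clones and 31.2 and 14.7 FPKM in luciferase clones, which overlap (0.77, SE 0.67, limma adjusted p = 0.667).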

How the data were processed

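Regions, levels and peak coverage were used as deposited. Per the submitters' processing notes, Bowtie, bedtools, MACS2, TopHat, Cufflinks and Cuffdiff were used with mm9; coordinates are mm9, printed 1-based, unless GRCm38.p6 is named. The deposited table of levels is headed RPKM per the file headers, but they are on a log2(RPKM + 1) scale: on it, 100% of the values that amount to fewer than 100 reads came out whole (tolerance 0.05), against 8.83% as plain RPKM for MTA1. The recovered reads came to 6.62 to 24.1 M per library. The authors' table of peak coverage gives a fraction of each region per library. Peak lists were deposited with a score, and the sequential list, called with MACS, with a fold enrichment ratio, −log10 p and q and pileup signal. The deposited FPKM tables, whose depth is unknown, were summed per symbol; Cep250 and Per1, not OK in a library, were left out.

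Shares were counted over regions, with an overlap of at least 1 bp, and carry exact binomial intervals where printed. Regions are not replicates, so no test was made between sets of regions. Gene starts came from strands in the RefSeq promoter table; 74.6% of 23951 symbols matched, and the rest counted by the nearer locus end. Knockdown and luciferase clones were compared with limma 3.58.1 (R 4.3.3) on log2(FPKM + 1), two-sided with trend and Benjamini-Hochberg adjustment; it was tested on simulated data. Nothing says that clones came from separate cultures beyond their numbers, so p-values measure the spread between these samples. Genes with paralogs or pseudogenes, antisense and overlapping genes may share reads. Named regions were the 10 of highest MTA1 level in all, at promoters with a partner, and outside genes with a partner; named genes were NuRD genes, up to 3 per list by MTA1 level, and 5 per direction by p. Further members of lists were named after their values were seen. The members and lists were chosen with earlier results of these data known. Python 3.11.15 and pandas 2.3.3 were used for the rest.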

Additional observations from a re-analysis of the deposited data

How the results depend on the processing

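The share of MTA1 regions at annotated promoters (30.5%) was 7.33% with the 5-prime end class only, 10.9% with a coverage of at least 0.5, 40.8% at 500 to 1500 bp and 34.6% with at least 10 MTA1 reads. The share with a partner (75.2%) was 44.4% with a partner coverage of at least 0.5, 11.5% with an MTA1 coverage of at least 0.5, 87.5% at 500 to 1500 bp and 89.5% with at least 10 reads. An MTA1 coverage of at least 0.5 left 643 regions, most of them without a partner, and at least 10 reads left 2506. The window of 500 to 1500 bp left out all regions with MTA1 alone, which had at most 321 bp. The share with an H3.3 peak (71.9%) was 68.4% and 70.2% with either replicate left out, 66.7% in both, 85.8% at 500 to 1500 bp and 86.4% with at least 10 reads, and the H3.3 level difference (0.39) was 0.27 to 0.51 and, at 500 to 1500 bp, 0.20. The luciferase overlap (3.22%) was 0.862% with scores of at least 100 and 1.56% with a coverage of at least 0.5, and the share of luciferase peaks in MTA1 regions (7.05%) was 15.7% with scores of at least 100. The median FPKM of linked genes (16.5, luciferase clones) was 15.9 to 16.3 with a clone left out and 16.9 with starts within 1 kb. Read minimum and strand filters were chosen after seeing the data. All 16 alternatives for partner and mark levels stayed above 0.

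Genes past the test (4) numbered 5 to 36 with a clone left out: 9 without knockdown clone 1, 13 without clone 2, 36 without luciferase clone 1 and 28 without clone 2. With the clone number as a replicate block the count was 0 (505 at an unadjusted p under 0.05); the numbers are only shared, with same-number correlations of −0.25 and −0.095, and do not pair the clones. Linked genes past the test stayed at 0 in every setting. Their median log2 difference (−0.07) turned to 0.017 with quantile normalization, where that of all genes was −0.01, and was −0.08 to −0.04 with a clone left out. None of the 10 named RNA genes changed sign or passed the test in 10 alternative fits (adjusted p 0.190 to 0.955). The causes were not tested.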
